A study of Rattus norvegicus with 16 samples.

Results

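The granule docking and exocytosis machinery of the endocrine cell, as 9 genes, was followed in isolated rat pancreatic islets on an oligonucleotide expression array. They are Snap25, Stx1a, Vamp2, Rab3a, Rab27a, Rph3al, Syt4, Syt7 and Cplx1, and they were found by gene symbol in the array's probe annotation. They are 9 of the 10412 genes with a probe set that names 1 gene, and they had 15 of the 15923 probe sets. The study crossed 2 viruses with 2 treatments. Islets took up an adenovirus encoding PPARγ, a nuclear receptor that acts as a lipid sensor, or a null adenovirus that served as its control. In all groups the dose was 50 viral particles per cell for 32 h. A further incubation of 16 h followed, in 200 nM of GW347845, a PPARγ agonist, or in 0.004% DMSO, the vehicle. Results rest on 14 arrays: 4 of PPARγ virus with GW347845, 4 of PPARγ virus with vehicle, 3 of null virus with GW347845 and 3 of null virus with vehicle. Every group had received a virus, so none shows uninfected islets. The strain, sex and age of the rats, the species of the viral PPARγ cDNA and the promoter that drove it are not known from the labels. Nothing in the labels tells if each replicate was its own islet preparation, so p-values measure only the spread between these arrays, which may be technical.

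Insulin and the other islet hormones are stored in dense core granules and are released by regulated exocytosis. Granules are moved to and held at the plasma membrane by small Rab GTPases and their effectors, here Rab3a, Rab27a and Rph3al (also called Noc2). Fusion is driven by a SNARE complex of Vamp2 on the granule with Snap25 and Stx1a on the plasma membrane. Complexin (Cplx1) binds that complex, and synaptotagmins such as Syt7 couple fusion to calcium, while Syt4 is an unusual synaptotagmin whose calcium binding is weak.

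No member passed the test in any comparison. For the 7 probe sets and 6 genes bright enough to test, estimated changes by virus, agonist or both lay within 1.46-fold on the log2(intensity + 4.6) scale. That limit is set by Stx1a, which is dim, and the scale understates folds of dim genes. The arrays differed more by replicate number than by treatment in the case of Snap25, which ranged from 805.0 to 1869.6 in intensity, and this spread followed the replicate number and not the agonist. Rph3al under the PPARγ virus had the lowest unadjusted p of the agonist comparisons without a block. It was lower with GW347845 than with vehicle in 4 of 4 pairs of the same replicate number. Its adjusted p was 1.00, and 0.347 with the replicate number as a block within each virus (limma). Because these are whole islets, fewer cells of a type and less RNA per cell cannot be told apart.

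PPARγ is a transcription factor, so the stretch before each gene's start was searched for the letters it is known to bind. RefSeq promoters (build GRCr8) were available for 7 of the 9 genes; Snap25 and Syt7 were not in the promoter table. The 250 bases before the annotated start are printed for the pair of SNARE genes with a promoter, Vamp2 and Stx1a, for Rph3al, which was lower with the agonist in all PPARγ virus pairs, and for Syt4, which like Rph3al has no GC box there. Capitals mark GGGCGG, the GC box, read on either strand.
Vamp2, chr10:54292539-54292788, plus strand: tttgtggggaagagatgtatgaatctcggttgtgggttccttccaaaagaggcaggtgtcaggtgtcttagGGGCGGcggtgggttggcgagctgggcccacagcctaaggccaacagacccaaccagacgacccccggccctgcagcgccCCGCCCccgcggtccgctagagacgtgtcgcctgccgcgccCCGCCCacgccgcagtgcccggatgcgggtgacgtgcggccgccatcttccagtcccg
Stx1a, chr12:27306472-27306721, minus strand: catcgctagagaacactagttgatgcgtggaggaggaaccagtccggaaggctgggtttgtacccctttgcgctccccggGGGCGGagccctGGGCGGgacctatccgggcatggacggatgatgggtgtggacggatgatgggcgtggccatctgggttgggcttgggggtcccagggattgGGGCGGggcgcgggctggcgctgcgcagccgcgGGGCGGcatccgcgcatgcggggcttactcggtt
Rph3al, chr10:61300146-61300395, minus strand: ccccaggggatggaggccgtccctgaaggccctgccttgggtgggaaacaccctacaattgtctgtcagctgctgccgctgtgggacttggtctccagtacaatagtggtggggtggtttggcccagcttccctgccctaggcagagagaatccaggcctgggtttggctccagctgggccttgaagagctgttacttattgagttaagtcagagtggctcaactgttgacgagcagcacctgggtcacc
Syt4, chr18:23320864-23321113, minus strand: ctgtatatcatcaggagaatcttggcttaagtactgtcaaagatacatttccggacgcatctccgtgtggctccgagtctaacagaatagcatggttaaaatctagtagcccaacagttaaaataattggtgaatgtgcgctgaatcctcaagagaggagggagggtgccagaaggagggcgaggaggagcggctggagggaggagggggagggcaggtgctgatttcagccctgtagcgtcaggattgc

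The binding pattern of PPARγ with its partner RXR, AGGTCA followed by any 1 base and AGGTCA again, was found on neither strand in any of the 7 windows. It was present in 0.0508% of all 33469 RefSeq promoter windows of this length. A single AGGTCA, which lies within that repeat, was also in 0 of 7, against 14.1% of all windows. GGGCGG was in 5 of 7 (Vamp2, Stx1a, Cplx1, Rab3a and Rab27a), with 4 matches in Stx1a and 3 in Vamp2, against 30.5% of all windows, and was not matched in Rph3al or Syt4. The cyclic AMP response core TGACG was in 5 of 7 (Vamp2, Rph3al, Cplx1, Rab3a and Syt4), against 18.2%. CCAAT was in 3 of 7, against 34%, and TATAAA in 0 of 7, against 12.9%. G and C made up 51.2% of the Syt4 window and 68.4% of the Stx1a window, against a median of 51.2% over all windows. The 5 windows with GGGCGG held 60.4% to 68.4%, and the Rph3al window 58.4%. The part of G and C content in the GGGCGG matches was not tested. A missing match says only that those letters are not in this window, and more distant sequence was not searched.

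Values are intensities on a linear scale, scaled by the authors so that every array has the same trimmed mean. Levels were tested between arrays for 1 probe set at a time and never between genes. Sums over marker genes add the intensities of different probe sets, so the brighter ones weigh more in them. Mean intensity also served to choose which probe sets and genes to name. Pparg itself read 4593.4 to 5966.4 with the PPARγ virus and GW347845, 4939.2 to 6199.1 with that virus and vehicle, 25.6 to 51.4 with the null virus and GW347845, and 27.7 to 39.1 with the null virus and vehicle, so the arrays went with their virus labels. Beta cell markers were well represented: all 7 on the array were above the lower limit for testing, with Ins1 at 4626.9 to 7093.1. Of 11 acinar markers 9 were too dim to test. The replicate 2 columns of the null virus, which are identical for vehicle and agonist, were not used. Median intensity was 56.4 to 67.5 over the 14 arrays.

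Tests were run on the 10078 probe sets that exceeded an intensity of 39.3 (the table's 40th percentile) on 4 or more arrays. Of the 15 member probe sets, 7 met it: those of Snap25 and Rph3al, both of Cplx1 and 1 each of Stx1a, Vamp2 and Syt4. The other 8 stayed at or under that limit on more than 10 arrays; they were the only probe sets of Rab3a, Rab27a and Syt7 and the dimmer ones of Stx1a, Vamp2 and Syt4. For 3 of the 9 genes there is thus no tested value.

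**Figure D1:**
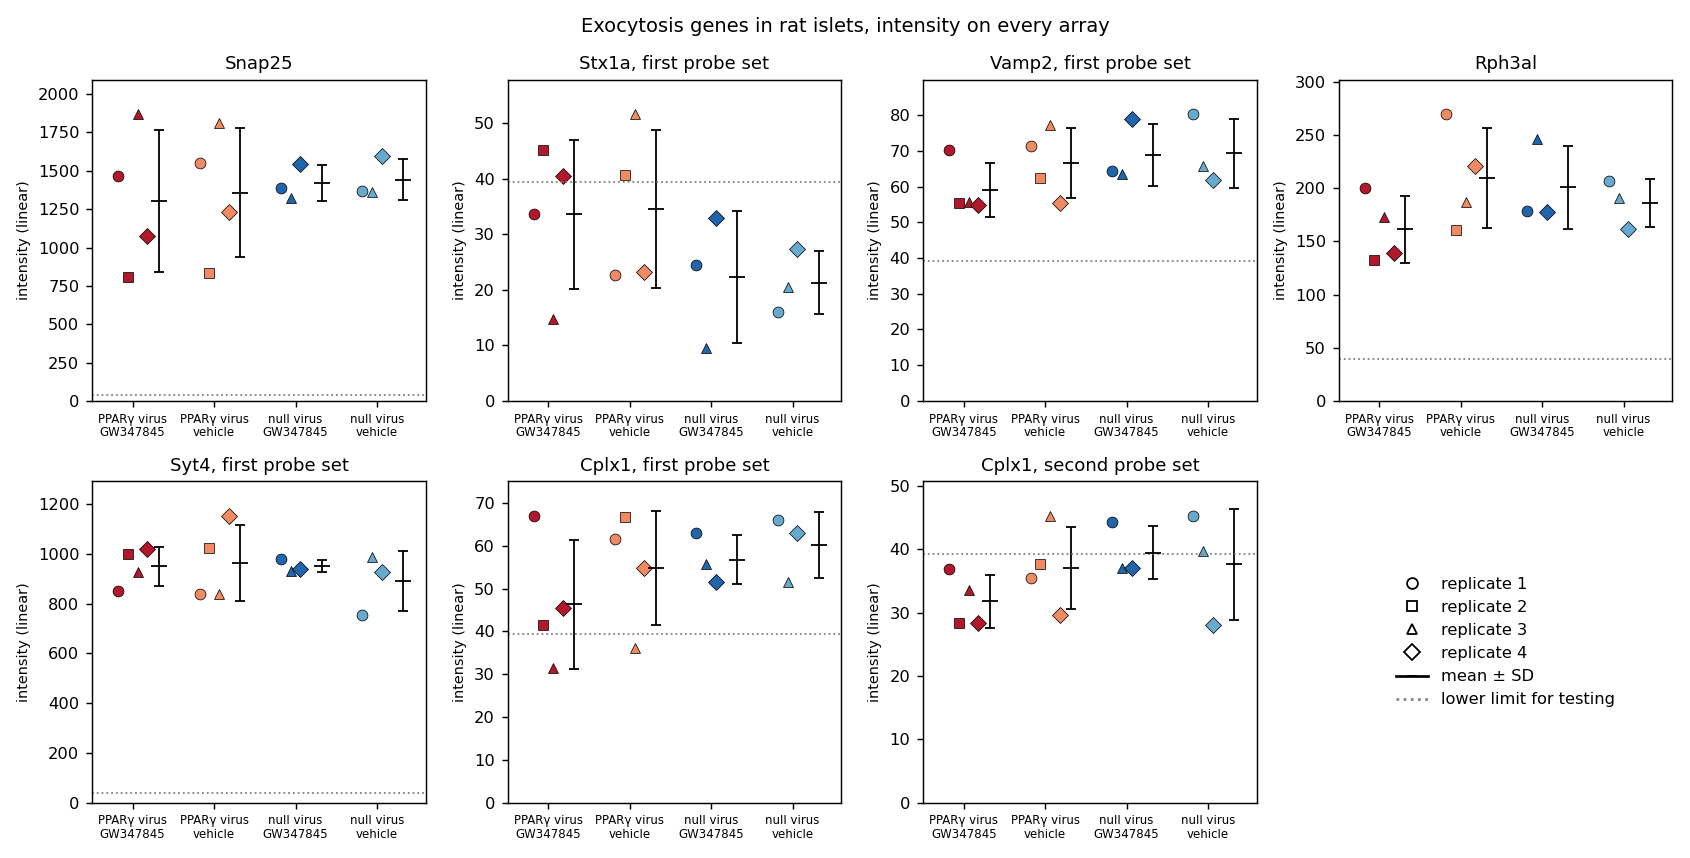
Intensity (linear scale, y axis) of the 7 tested probe sets on each of the 14 arrays, by group (x axis); symbols give the replicate number, black bars the mean ± SD and the dotted line the lower limit for testing of 39.3. All groups overlap except that the second Cplx1 probe set with PPARγ virus and GW347845 (28.3 to 36.9) lies below null virus with GW347845 (37.0 to 44.3), and Snap25 replicate 2 of the PPARγ virus is low with GW347845 (805.0) and with vehicle (834.5).

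Snap25, the plasma membrane SNARE that supplies both of the helices not given by syntaxin and Vamp2, read 1466.6, 805.0, 1869.6 and 1076.4 on PPARγ virus arrays 1 to 4 with GW347845. On the PPARγ virus arrays with vehicle of the same numbers it read 1548.0, 834.5, 1814.7 and 1232.5. Replicate 3 was high and replicate 2 low in both groups, so the groups overlapped almost completely. With the null virus it read 1389.1, 1322.9 and 1547.1 in GW347845 (replicates 1, 3 and 4), against 1367.8, 1362.0 and 1596.4 in vehicle. The agonist difference in log2 was -0.07 ± 0.24 (SE, limma, adjusted p = 1.00) under the PPARγ virus and -0.02 ± 0.28 (adjusted p = 1.00) under the null virus. The virus difference was -0.19 ± 0.26 with GW347845 (adjusted p = 0.923) and -0.14 ± 0.26 in vehicle (adjusted p = 1.00).

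Within a number Snap25 hardly moved. The difference GW347845 minus vehicle was -0.08, -0.05, 0.04 and -0.19 in the 4 PPARγ virus pairs and 0.02, -0.04 and -0.05 in the 3 null virus pairs, on the log2 scale. Between numbers the PPARγ virus arrays spanned 2.32-fold with GW347845 and 2.17-fold with vehicle, while null virus arrays spanned 1.17-fold in each treatment. Of the sum of squares among the 8 PPARγ virus arrays, 98.4% lay between replicate numbers and 0.638% between treatments; over all 10078 probe sets the median share between numbers was 71.8%. Among the tested probe sets, 1.54% had a share at least as high. These are descriptions, without a test.

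The summed signal of islet hormones that do not come from beta cells was low on the same arrays. The summed intensity of Gcg, Sst, Ppy, Pyy and Ghrl, all 5 of the list and all bright enough to test, was 8424.2, 498.3, 8968.4 and 2337.6 on PPARγ virus arrays 1 to 4 with GW347845, against 8518.2, 998.5, 9837.3 and 2448.1 with vehicle. Replicate 2 was lowest in both treatments, then replicate 4, as for Snap25. Glucagon (Gcg) and pancreatic polypeptide (Ppy) made up most of the sum, and they and Pyy had that order in both treatments. Somatostatin (Sst) did not: with vehicle it read 272.3 on replicate 2 and 222.8 on replicate 4, and ghrelin (Ghrl) read 56.8 and 47.3 there. On null virus arrays 1, 3 and 4 the sum was 6263.7, 5442.4 and 7456.9 with GW347845, against 5417.4, 4640.4 and 9223.6 with vehicle. Replicate 4 was highest in both, again as for Snap25. Ppy and Pyy had that place in both treatments. Gcg had it with vehicle only, since with GW347845 it read 3305.3 on replicate 3 and 3282.0 on replicate 4. Sst was highest on replicate 3 and Ghrl on replicate 1 in both treatments. The summed intensity of 10 granule proteins (such as Chga, Pcsk2 and Cpe) was also lowest on PPARγ virus replicate 2, at 13086 with GW347845 and 14629 with vehicle, and reached 21217 elsewhere. The 7 beta cell markers summed to 12739 and 13969 on those 2 arrays, against up to 17847 and 17174 on the other arrays of their groups. Markers of neurons and Schwann cells, which also use this machinery, summed to 872 to 1117, 932 to 1193, 1077 to 1238 and 1063 to 1334 in the groups of PPARγ virus with GW347845, PPARγ virus with vehicle, null virus with GW347845 and null virus with vehicle, with 8 of the 11 on the array bright enough to test. The brightest of these was Syp, at a mean of 283, and whole islets cannot tell if endocrine cells share in that signal. The part of cell makeup in the Snap25 values was not tested. Without both arrays of PPARγ virus replicate 2, a choice made after seeing the data, the Snap25 virus difference was 0.02 with GW347845 and 0.07 in vehicle (adjusted p = 0.989 and 0.997), so its negative sign rested on that replicate.

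**Figure D2:**
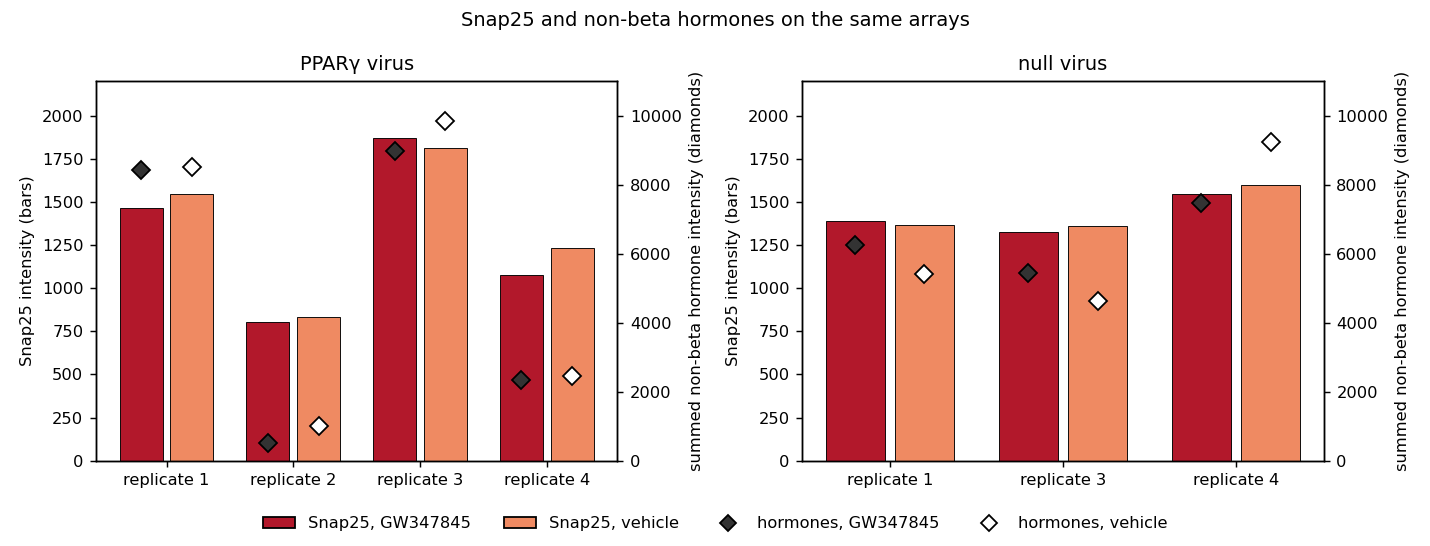
Snap25 intensity (bars, left axis) and the summed intensity of 5 non-beta islet hormones (diamonds, right axis) on each array by replicate number (x axis), for the PPARγ virus and the null virus; within a number GW347845 stands left of vehicle. Replicate 2 of the PPARγ virus has the lowest bars (805.0 and 834.5) and the lowest diamonds (498.3 and 998.5).

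The probe sets whose centred log2 profile lay closest to that of Snap25 over the 14 arrays were those of Gramd2b, Pam and Papss2, with a root mean square difference of 0.092, 0.093 and 0.095, against a median of 0.437 over the 5884 candidates. Pam encodes the granule enzyme that amidates peptide hormones and is one of the 10 granule proteins above. The spread of Snap25 about its own mean was 0.349. The closest profiles of Stx1a differed from it by at least 0.341 (Mark2), against an own spread of 0.549. For Syt4 the closest were Commd7, Apip and Tmco1 (0.077 to 0.080), against an own spread of 0.147. For Rph3al they were Npdc1, Nup54 and Fbxo7 (0.158 to 0.159), against 0.269. For Vamp2 the closest were RT1-S3, Ints1 and Kcnk6 (0.094 to 0.101), against 0.175. For Cplx1 they were Stat2, Slc35a2 and Fip1l1 (0.147 to 0.183), against 0.303.

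Stx1a, the syntaxin of the plasma membrane SNARE pair, was near the limit of measurement. Its brighter probe set read 33.7, 45.2, 14.8 and 40.5 with the PPARγ virus and GW347845, and 22.6, 40.7, 51.6 and 23.2 with that virus and vehicle. It read 24.5, 9.5 and 32.9 with the null virus and GW347845, and 16.0, 20.5 and 27.4 with the null virus and vehicle. Only 4 arrays, all of the PPARγ virus, exceeded 39.3, and that is how the probe set came to be tested, so its direction between viruses supports nothing by itself. All null virus values lie under that limit. The log2 change was 0.53 ± 0.39 for the virus with GW347845 (adjusted p = 0.787) and 0.55 ± 0.39 in vehicle (adjusted p = 1.00), with exact two-sided permutation p = 0.343 and 0.229, where the smallest possible was 0.0571. The value with GW347845 depended on single arrays: it was 0.12 without null virus replicate 3 with GW347845, and 0.83 without replicate 4 of that group or without PPARγ virus replicate 3 with GW347845. With both virus and agonist it was 0.50 ± 0.39 (adjusted p = 0.826, exact permutation p = 0.286). Its 95% interval there ran from 0.788-fold to 2.53-fold, the widest of the 7 probe sets in this comparison. The agonist difference was -0.05 ± 0.36 under the PPARγ virus and -0.03 ± 0.42 under the null virus (adjusted p = 1.00 for each). The dimmer Stx1a probe set stayed between 2.4 and 14.8 on all arrays.

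Vamp2, the granule SNARE, read 70.3, 55.5, 55.7 and 54.8 with the PPARγ virus and GW347845, and 71.4, 62.3, 77.3 and 55.4 with that virus and vehicle. Each array with GW347845 was below its partner of the same number, by 0.01 to 0.44 in log2, although the groups overlapped. With the null virus it read 64.4, 63.5 and 78.8 in GW347845, against 80.3, 65.9 and 61.8 in vehicle, with 2 of 3 pairs lower and 1 higher. The agonist difference was -0.16 ± 0.14 under the PPARγ virus (adjusted p = 1.00) and -0.01 ± 0.16 under the null virus (adjusted p = 1.00). For the virus it was -0.21 ± 0.15 with GW347845 (adjusted p = 0.786) and -0.06 ± 0.15 in vehicle (adjusted p = 1.00). The dimmer Vamp2 probe set lay between 5.0 and 31.3, under the limit for testing.

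Rph3al, the Rab effector that binds Rab3 and Rab27 on granules, read 200.3, 132.8, 173.0 and 138.9 with the PPARγ virus and GW347845, and 269.7, 160.7, 187.1 and 220.9 with that virus and vehicle. The arrays with GW347845 averaged 161 ± 31.5 and those with vehicle 210 ± 47.04 (SD, n = 4 each). All 4 pairs were lower with the agonist, by 0.11 to 0.65 in log2, but the group ranges overlapped between 160.7 and 200.3. The log2 change was -0.36 ± 0.18 (limma, unadjusted p = 0.0578, adjusted p = 1.00), with a 95% interval from 0.599-fold to 1.01-fold. The exact permutation p was 0.143 (smallest possible 0.0286), from arrays permuted freely, without the pairing by replicate number. Without PPARγ virus replicate 1 with vehicle, the array at 269.7, the change was -0.23. With the replicate number as a block within each virus, the standard error was 0.11 and the adjusted p 0.347 (unadjusted 0.00712). The 95% interval then ran from 0.657-fold to 0.920-fold. In this comparison 0.0595% of all tested probe sets passed without the block and 0.397% with it. A fall in all 4 pairs was shared by 10.2% of all tested probe sets, and by 2 of the 7 of these genes, Rph3al and Vamp2.

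Under the null virus Rph3al read 178.7, 246.0 and 177.5 with GW347845, against 206.5, 190.8 and 161.6 with vehicle. There 1 pair was lower and 2 were higher, and the log2 change was 0.10 ± 0.20 (adjusted p = 1.00). The difference between the 2 agonist effects was -0.46 ± 0.27 (adjusted p = 1.00, and 0.788 with the block within each virus). The virus difference was -0.31 ± 0.19 with GW347845 (adjusted p = 0.719) and 0.15 ± 0.19 in vehicle (adjusted p = 1.00). The 3 prime to 5 prime signal ratio of the beta-actin control, a measure of RNA integrity, was higher with GW347845 in 4 of 4 PPARγ virus pairs, by 0.24 in log2, and in 3 of 3 null virus pairs, by 0.38. The same ratio of Gapdh was higher in 3 of 4 PPARγ virus pairs, with a mean difference of -0.07, and in 1 of 3 null virus pairs, with a mean of 0.24, so the controls did not move alike. The ratios themselves ran from 7.58 to 14.9 for beta-actin and from 8.36 to 18.9 for Gapdh over the 14 arrays. Null virus replicate 3 with GW347845, the array with Rph3al at 246.0, had the highest Gapdh ratio (18.9) and 14.5 for beta-actin. The part of RNA integrity in the Rph3al and Vamp2 values was not tested. Among the 4 PPARγ virus pairs the Rph3al difference was widest in replicate 4 (-0.65) and narrowest in replicate 3 (-0.11).

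Syt4 had the narrowest intervals of the tested genes in the fit without a block. With the replicate block within each virus that of Snap25 was narrower, from 0.872-fold to 1.04-fold for the agonist under the PPARγ virus (adjusted p = 0.758). Its bright probe set read 850.7, 999.3, 928.3 and 1021.6 with the PPARγ virus and GW347845, and 839.9, 1024.6, 837.5 and 1153.3 with that virus and vehicle. Replicates 2 and 4 were above replicates 1 and 3 in both groups, the reverse of the order seen for Snap25. With the null virus it read 979.6, 932.8 and 941.1 in GW347845, against 756.5, 988.8 and 928.7 in vehicle. The agonist difference was -0.01 ± 0.12 under the PPARγ virus, with a 95% interval from 0.834-fold to 1.18-fold, and 0.10 ± 0.14 under the null virus, from 0.878-fold to 1.31-fold (adjusted p = 1.00 for each; exact permutation p = 0.6 under the null virus, smallest possible 0.1). The virus difference was -0.01 ± 0.13 with GW347845 (adjusted p = 0.995) and 0.11 ± 0.13 in vehicle (adjusted p = 1.00). The dim Syt4 probe set read 2.3 to 25.7 and was not tested.

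Cplx1, the complexin, was measured by 2 tested probe sets. The brighter read 67, 41.4, 31.4 and 45.5 with the PPARγ virus and GW347845, and 61.7, 66.7, 36.2 and 54.7 with that virus and vehicle. With the null virus it read 63.0, 55.7 and 51.6 in GW347845, against 66.1, 51.6 and 62.9 in vehicle. Replicate 3 of the PPARγ virus was low in both treatments, the opposite of its place for Snap25. The change with both virus and agonist was -0.39 ± 0.23 (adjusted p = 0.724), and -0.42 (unadjusted p = 0.0389, adjusted p = 0.337) with the replicate number as a block over all groups, a comparison in which 0.665% of tested probe sets passed without and 1.76% with that block. The other Cplx1 probe set stood at -0.20 ± 0.19 (adjusted p = 0.868).

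That second Cplx1 probe set read 36.9, 28.3, 33.6 and 28.3 with the PPARγ virus and GW347845, against 44.3, 37.0 and 37.1 with the null virus and GW347845. The probe set was tested only through 4 arrays above 39.3, none of them of the PPARγ virus with GW347845, so its low place in that group supports nothing by itself. The groups did not overlap, and no other tested member had groups that did not overlap in any of the 5 comparisons of 2 groups. In the virus comparison with GW347845, 1 of 7 tested member probe sets had separate groups, where 9.82% of all tested probe sets did. In the others 0 of 7 did, against 8.95% of all with virus and agonist together, 4.62% for the virus in vehicle, 1.8% for the agonist under the PPARγ virus and 4.61% under the null virus. Its change there was -0.28 ± 0.19 (adjusted p = 0.766), and that of the first was -0.31 ± 0.23 (adjusted p = 0.786). In vehicle the second read 35.5, 37.7, 45.3 and 29.6 with the PPARγ virus, against 45.2, 39.7 and 28.0 with the null virus, and overlapped fully (-0.01 ± 0.19, adjusted p = 1.00).

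The 3 genes that could not be tested are given as values. Rab27a, the GTPase that tethers granules, read 35.9, 23.6, 22.6 and 32.4 with the PPARγ virus and GW347845, and 31.5, 25.9, 42.7 and 25.0 with that virus and vehicle. With the null virus it read 37.6, 21.7 and 23.0 in GW347845, against 38.3, 28.4 and 34.5 in vehicle, so a single array of the 14 was above 39.3. Rab3a, the GTPase of late granule docking, read 13.7 to 21.0 with the PPARγ virus and GW347845, against 7.5 to 9.7 with the null virus and GW347845. These ranges did not overlap, but all lie far under the limit, and in vehicle the ranges were 8.5 to 26.2 with the PPARγ virus, against 1.1 to 25.2 with the null virus. The 3 Syt7 probe sets read 0.2 to 23.0 over all arrays; 2 of them carry a suffix for probes shared by several transcripts of a gene and 1 a suffix for probes that may bind unrelated sequence. Syt7 is the calcium sensor tied to slow exocytosis. Its probe set with the suffix for unrelated sequence read 3.8 to 6.4 with the PPARγ virus and GW347845, 5.0 to 17.0 with that virus and vehicle, 6.8 to 10.3 with the null virus and GW347845, and 11 to 13.3 with the null virus and vehicle. The group with both virus and agonist lay below both null virus groups, at values too dim to test. Another Syt7 probe set read 0.3 to 0.6 with the PPARγ virus and GW347845, against 1.4 to 3.3 with the null virus and GW347845. For the virus with GW347845, 4 of all 15 member probe sets had separate groups, 1 of them tested, where 9.82% of all tested probe sets did. Rab3a was higher and the others lower. The share among untested probe sets was not counted, so these separations support nothing by themselves.

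**Figure D3:**
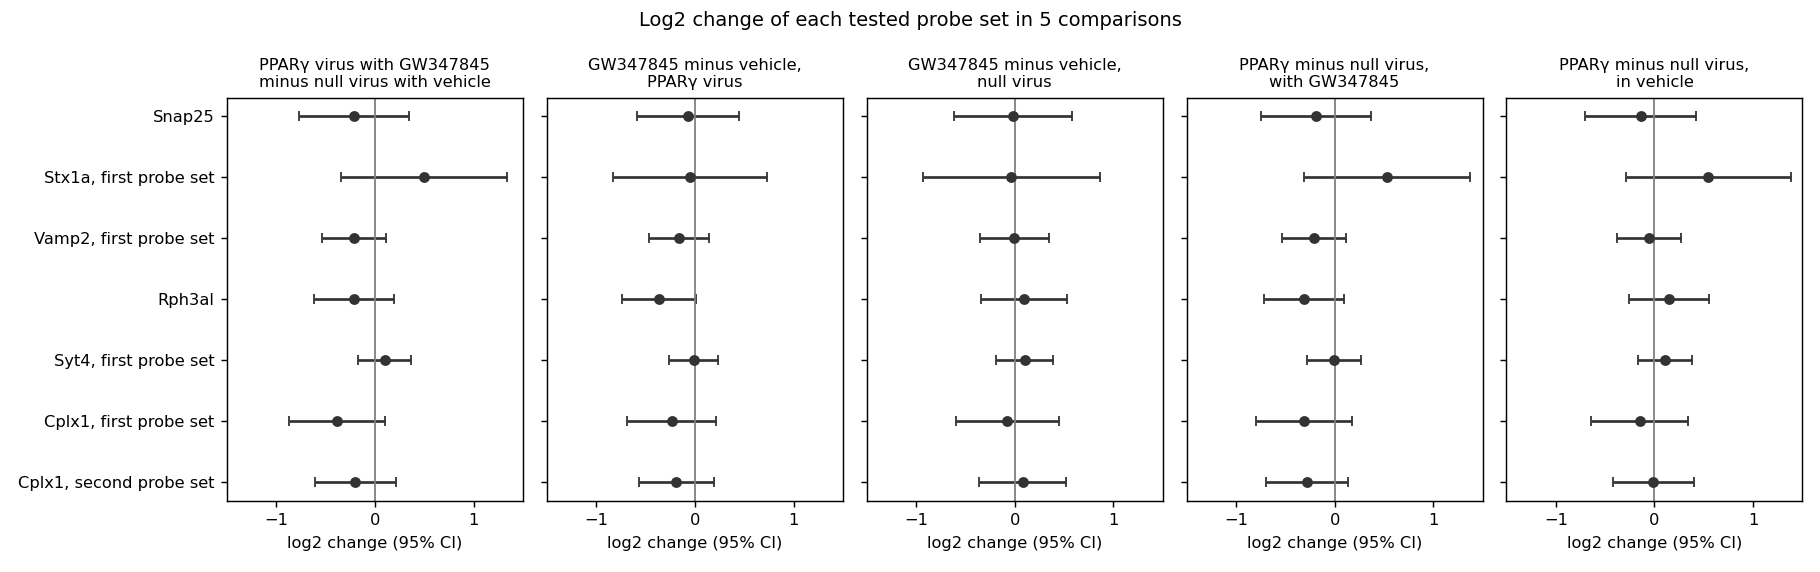
Log2 change (x axis) of the 7 tested probe sets (y axis) with 95% confidence intervals in 5 comparisons, from PPARγ virus with GW347845 minus null virus with vehicle on the left to PPARγ minus null virus in vehicle on the right. The fit had no block on the replicate number. All intervals include 0, and those of Stx1a are the widest in each panel.

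Across the 7 tested probe sets, 0 passed in each of the 6 contrasts, and 0 had an unadjusted p under 0.05 without a block. Over all 10078 probe sets limma called 0.665% with virus and agonist together, 0.705% for the virus with GW347845, 0.0397% for the virus in vehicle, 0.0595% for the agonist under the PPARγ virus, 0% for the agonist under the null virus and 0% for the interaction, a background at which 0 of 7 is no result about these genes. With a block on the replicate number within each virus 0 of 7 passed as well, where 0.397% of all probe sets did for the agonist under the PPARγ virus and 0.0496% for the interaction. With a block over all groups 0 of 7 passed, where 1.76% did with virus and agonist together, 2.09% for the virus with GW347845, 0.337% for the virus in vehicle, 0.139% for the agonist under the PPARγ virus and 0.0298% for the interaction. Unadjusted p-values under 0.05 made up 8.48%, 9.19%, 4.43%, 2.93%, 0.943% and 1.42% in that order. The median log2 change of the 7 was -0.21 with both virus and agonist, against -0.03 over all tested probe sets, with 2 positive and 5 negative. For the agonist under the PPARγ virus it was -0.16, against -0.02, with 7 of 7 negative where 45.0% of all tested probe sets were positive. It was -0.01 for the agonist under the null virus, with 3 positive, and -0.01 for the virus in vehicle, with 3 positive. The probe sets share arrays and 2 of them share a gene, so these counts are descriptions. Stx1a and the second Cplx1 probe set were each tested only through 4 arrays above the limit. For Stx1a all of these were of the PPARγ virus, and for Cplx1 none had both PPARγ virus and GW347845. The signs of these probe sets in the counts, that of Cplx1 in the 7 of 7 included, support nothing by themselves. Comparisons with the same control arrays are not independent of each other.

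No marker of the hormone cells passed in that comparison of virus and agonist together. Of the 7 beta cell markers 0 had a positive log2 change, where 44.7% of all tested probe sets did, and their median was -0.09. Pdx1, a beta cell transcription factor, stood at -0.67 ± 0.16 (adjusted p = 0.0904), Gjd2, the gap junction protein of beta cells, at -0.95 ± 0.23 (adjusted p = 0.0975) and Ins1 at -0.09 ± 0.11 (adjusted p = 0.913). Of the 5 non-beta hormones 4 stood negative and Sst at 0.60 (adjusted p = 0.899). Gcg stood at -1.14 (adjusted p = 0.826), which was also the median of the 5. Of 6 tested duct cell markers 1 passed, upward (limma, adjusted p = 0.0391), where 0.665% of all tested probe sets passed. For the virus with GW347845 1 of the 6 passed as well (limma, adjusted p = 0.0284), where 0.705% of all did. The part of these values in the members' values was not tested.

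The intervals of the fit without a block bound what these arrays could have missed in that fit. With virus and agonist together, the 95% intervals of the 7 probe sets lay between 0.546-fold and 2.53-fold, and for the agonist under the PPARγ virus between 0.563-fold and 1.65-fold. Under the null virus those of the agonist lay between 0.524-fold and 1.82-fold. With the replicate number as a block within each virus, the agonist intervals under the PPARγ virus were narrower. That of Rph3al then ran from 0.657-fold to 0.920-fold (limma, adjusted p = 0.347), while those of the other tested probe sets included no change. The number of arrays limits the precision. In scatter between arrays of a group, Snap25 (SD 0.40 in log2) and Stx1a (0.57) stood above the median probe set (0.22), and Vamp2 (0.18) and Syt4 (0.17) below it.

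Other genes of the exocytosis pathway were counted in 5 lists, with 1 probe set per gene. Of 70 genes on the array 48 were tested, and 0 of 48 passed in each of the 6 contrasts. With virus and agonist together the median log2 change of the 48 was -0.02, against -0.03 over all tested probe sets; 23 were positive and 4 had an unadjusted p under 0.05, where 8.48% of all tested probe sets did. For the agonist under the PPARγ virus the median was -0.03, against -0.02, and 0 of 48 had an unadjusted p under 0.05. Under the null virus the median for the agonist was -0.00, with 24 positive, and again 0 of 48 had an unadjusted p under 0.05.

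Among 10 tested priming and active zone genes, Rims3, a short RIM family member, stood at -0.58 ± 0.16 (adjusted p = 0.163) with virus and agonist together. Its mean intensity over the 14 arrays was 39.3, at the limit for testing, so its direction supports nothing by itself. In the same comparison the scaffold gene Lin7c stood at 0.53 ± 0.17 (adjusted p = 0.318) and Cadps, the priming factor CAPS, at -0.15 (adjusted p = 0.902). Among 12 tested genes of the Rab3 and Rab27 cycle, Sytl4 (granuphilin, a Rab27 effector that docks insulin granules) stood at -0.56 ± 0.25 (adjusted p = 0.558), Rab3c at -0.32 (adjusted p = 0.735) and Gdi2, which recycles Rabs from membranes, at 0.07 (adjusted p = 0.926). Among 14 tested SNARE genes, Stx4 stood at -0.23 (adjusted p = 0.826), Nsf, the ATPase that takes SNARE complexes apart, at -0.19 (adjusted p = 0.851) and Vamp8 at -0.14 (adjusted p = 0.904). The 6 tested calcium sensor genes included Anxa7 at 0.21 (adjusted p = 0.676) and Anxa11 at 0.20 (adjusted p = 0.696), and the 6 tested exocyst genes Exoc6 at -0.45 (adjusted p = 0.585), Rala at -0.09 (adjusted p = 0.947) and Exoc3 at -0.03 (adjusted p = 0.979). Unc13a, Unc13b, Rims1, Rims2 and Rph3a were on the array but too dim to test.

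**Figure D4:**
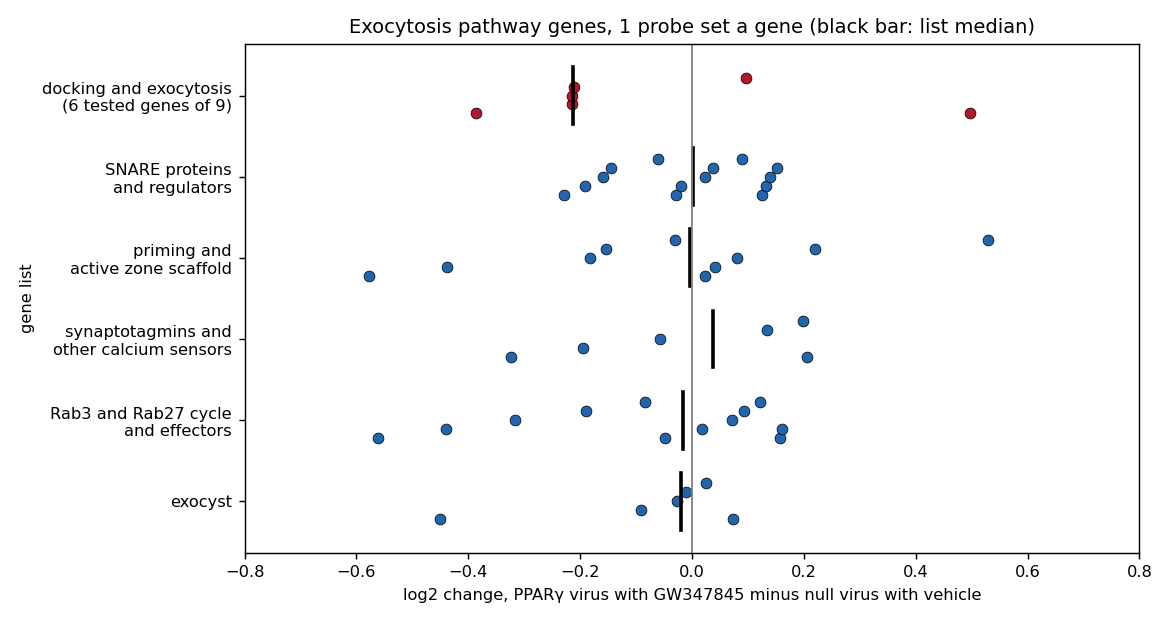
Log2 change (x axis), PPARγ virus with GW347845 minus null virus with vehicle, of the tested genes of the exocytosis pathway by list (y axis); 1 dot is 1 gene and the black bar the list median. Dots lie between -0.58 (Rims3, with a mean intensity at the limit for testing) and 0.53 (Lin7c). List medians other than that of the top row lie between -0.02 and 0.04.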

How the data were processed

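RNA of isolated rat islets had been hybridised to an oligonucleotide array; the deposited table gives 1 linear intensity per probe set. The authors scaled each array to a 2% trimmed mean of 150.0, as the deposited intensity values themselves show; the summarising software and its settings were not given in the sources used here. No detection calls were used. Values were taken as deposited, as log2(intensity + 4.6), where 4.6 is the 10th percentile of positive values; fold changes understate those of dim genes. The columns of replicate 2 of both null virus groups were identical in all 15923 probe sets and were left out.

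Group means were estimated in limma 3.58.1 (R 4.3.3), with moderated variances that follow a trend on intensity, over all 10078 tested probe sets, with Benjamini-Hochberg adjustment over all of them and a threshold of 0.05. The 6 contrasts were the virus at each treatment, the agonist under each virus, both against neither, and the interaction. Controls (57 probe sets) were not tested. Of the tested probe sets 8488 named 1 gene, 235 several and 1355 none. Symbols came from the platform's annotation, updated by gene identifier. The model, tested on simulated arrays, recovered 77% of 100 probe sets changed by 1 and 20% of 100 changed by 0.5 in log2 for the agonist under the PPARγ virus over 10078 probe sets. In the same simulation 11 unchanged probe sets also passed. The simulated noise was independent between probe sets and between arrays, without the pairing by replicate number seen in the real arrays.

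Arrays of the same virus and number deviated together (r across probe sets 0.445 to 0.702 in 7 of 7 pairs), so the number pairs them within a virus. Across viruses r was 0.299 to 0.433 for number 1 and -0.139 to 0.128 for numbers 3 and 4. The number therefore does not pair all arrays across viruses. This pairing comes from the data, since the labels give only the number. All member probe sets are named. Other pathway genes are, per list, the 2 of smallest p with virus and agonist together and the one of highest mean intensity. The likeness measure was the root mean square difference of centred log2 values, over probe sets of 1 gene with an SD of at least 0.5 times that of the member. Members, lists and tests were chosen with earlier results of these data known. Exact permutation tests used scipy 1.17.1, without the pairing by number, and figures Python 3.11.15 with matplotlib 3.10.9.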

Additional observations from a re-analysis of the deposited data

Results flagged for a closer look

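In 3 of the 30 groups of 4 arrays examined (15 probe sets in each PPARγ virus group), 1 array stood apart from the other 3 by more than Dixon's limit; chance gives about 1 in 20. All 3 lay in the PPARγ virus group with GW347845. Replicate 1 read 70.3 for Vamp2, against 54.8 to 55.7 on the other arrays of the group; its partner in vehicle read 71.4. Replicate 2 read 14.8 for the dimmer Stx1a probe set and 23.0 for the dimmer Syt4 probe set, both under the limit for testing.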

How the results depend on the processing

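The count of members that passed was 0 in each of the 6 contrasts, and it was 0 in all 171 refits as well. Of these, 159 were planned: other normalization, pseudocount and filter, the doubly labelled array kept under either or both labels, fits on the compared groups alone, no trend, replicate blocks, and each of the 14 arrays left out in turn. The other 12 were chosen after seeing the data and left out the PPARγ virus arrays of replicate 2, or of replicates 2 and 4. In 1110 refits of single probe sets 0 passed, and the lowest adjusted p was 0.337 (Cplx1, replicate block over all groups). The replicate block within each virus could not be fitted to contrasts between viruses. It changed no member's call; for all probe sets it gave 40 calls in place of 6 for the agonist under the PPARγ virus and 5 in place of 0 for the interaction. Across viruses the number did not pair all arrays. The block over all groups gave 177 in place of 67 with virus and agonist together and 211 in place of 71 for the virus with GW347845. It gave 34 in place of 4 for the virus in vehicle and 14 in place of 6 for the agonist under the PPARγ virus. Signs of small changes were not stable: the Snap25 virus change in vehicle ranged from -0.30 to 0.22 and was of the opposite sign in 4 of 28 refits. The Rph3al change with the agonist under the PPARγ virus was negative in all 29, between -0.48 and -0.23, the smallest in size without replicate 1 of the PPARγ virus with vehicle. Low signal limits Stx1a, Rab3a, Rab27a and Syt7.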

Other observations

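The array deposited under both null virus labels was in no comparison. It read 1266.1 for Snap25, 161.0 for Rph3al and 56.4 for Vamp2, each below the 6 null virus arrays used (1322.9 to 1596.4, 161.6 to 246.0 and 61.8 to 80.3). For Syt4 it read 915.8 and for the brighter Cplx1 probe set 62.6, inside the null virus range. All 15 probe sets lay within the range of the 14 arrays.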
